A study of Mus musculus with 27 samples.

Results

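Glypicans and syndecans are the main families of cell-surface heparan sulfate proteoglycans. A probe set was taken as a member when the platform annotation gave it a mouse symbol of Gpc or Sdc followed by a digit, which found 10 of the 702 mouse probe sets on the array, 6 for glypicans (Gpc1 to Gpc6) and 4 for syndecans (Sdc1 to Sdc4). Every member gene was represented by a single probe set, so that splice forms cannot be told apart. The probe sets of Gpc1 and Sdc4 carry the suffix that Affymetrix gives to probes shared by several transcripts. RNA came from bone marrow, lymph node, spleen, thymus, brain, kidney, liver, lung and testis, with 3 arrays for each tissue and 27 arrays in all. All were from males of the inbred strain C57BL/6, wild type and 6 to 8 weeks old, and bone marrow came from femurs. Every tissue was set against the others, and no altered genotype or agent was part of the study. No label tells whether replicate arrays stand for different mice, so p-values measure the spread between arrays, which may be technical.

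Glypicans are held on the outer membrane by a glycosylphosphatidylinositol anchor, whereas syndecans cross the membrane and carry a short cytoplasmic tail. Both carry heparan sulfate chains, built by exostosin polymerases and modified by sulfotransferases, which bind growth factors, morphogens, chemokines and matrix proteins and present them to their receptors. Glypicans are known for modulating Hedgehog, Wnt, bone morphogenetic protein and fibroblast growth factor signalling. Syndecans are known as co-receptors in adhesion and growth factor signalling, and their ectodomains can be shed by proteases.

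Values are the deposited array intensities on a linear scale, and differences are on the log2 scale from limma, a linear model with moderated variances fitted to all 702 mouse probe sets. Adjusted p is Benjamini-Hochberg over these probe sets within a comparison. A difference was called when its adjusted p was under 0.05 and its size was at least 1, that is 2-fold. Array medians ran from 221.5 to 243.7, no arrays held identical values, and the nearest array of each of the 27 was one from the same tissue. The 839 human probe sets on the same arrays had a median intensity of 205.2 and a 95th percentile of 590.1, which serves as a rough level of non-specific signal. That signal is not flat over tissues, since 11.1% of human probe sets had a tissue whose 3 arrays lay above all 24 others. The human GPC4 probe set followed mouse Gpc4 over the tissues (r = 0.97, below). Whether the human levels also hold signal from mouse counterparts was not tested. Gpc1, Gpc3, Sdc2 and Sdc4 passed that 95th percentile on 5, 19, 10 and 3 arrays, and the other 6 members on none, Gpc4 in kidney and Sdc1 in liver included. The summed level of 3 hepatocyte markers was 7305 to 10735 on liver arrays and 958.4 to 1416 elsewhere, that of 2 lung epithelium markers 10672 to 19450 on lung arrays and 628.9 to 933.2 elsewhere, and that of 5 neutrophil markers 18205 to 20289 on bone marrow arrays and 1867 to 3750 elsewhere. In brain, Ptn and Ugt8a of 6 neuron and glia markers were called higher, while Mag, Ncan, Bcan and St8sia3 were higher by 0.89, 0.52, 0.37 and 0.42, all under the size limit. No testis marker was among the lists, and Bmp7 was the 1 measured marker of 4 listed for kidney epithelium. A tissue sample mixes cell types, so fewer cells of a type and less RNA per cell cannot be told apart.

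Among the 10 members, Gpc1, Gpc4 and Sdc1 differed between the 9 tissues at the set threshold, with Gpc1 highest in bone marrow and brain, Gpc4 in kidney and Sdc1 in liver. Their tissue means spanned 2.47-fold (Gpc1), 3.16-fold (Gpc4) and 2.31-fold (Sdc1). These 3 of 10 stand beside 52.3% of all 702 mouse probe sets called by the same moderated F test. All 10 members had an adjusted p under 0.05 in that test when the span was left aside, as did 86.3% of mouse probe sets. The median span of the members was 0.76 on the log2 scale, against 1.07 over all mouse probe sets. The other 7 members spanned 0.56 to 0.91. Against the mean of the other 8 tissues, Gpc4 in kidney was the single call among 90 member tests, where 6.95% of all such tests were called higher. No member was called lower in any tissue by limma, where 5.60% of all tests were. With no size limit, 23 member tests were lower and 15 higher at an adjusted p under 0.05, and 27 lower and 21 higher at an unadjusted p under 0.05. These 38 of 90 stand beside 48.0% of all probe sets' tests. In the 36 tissue pairs, 19 of 360 member tests were called (5.28%), against 17.0% over all mouse probe sets. The pair calls belonged to Gpc1 (8), Gpc4 (7) and Sdc1 (4).

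**Figure D1:**
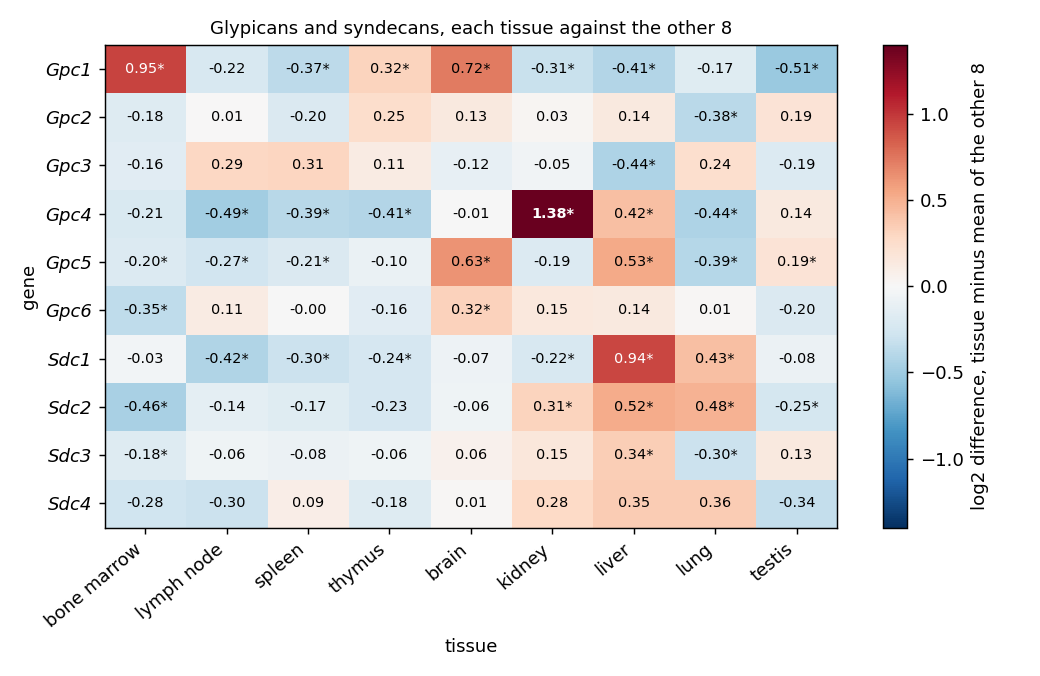
Log2 difference of each glypican and syndecan probe set in each tissue (columns) from the mean of the other 8 tissues. Asterisks mark an adjusted p under 0.05 and bold type marks the 1 call that also reached a size of 1, Gpc4 in kidney (1.38).

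Gpc4, also known as K-glypican, was the member with the widest span, and its level was set apart in kidney. The kidney arrays read 334, 353 and 359. Liver arrays read 181, 237 and 166, testis arrays 192, 149 and 147, and brain arrays 140, 161 and 142. Every kidney array lay above all 24 others, the nearest being a liver array. Bone marrow arrays read 144, 127 and 120, lung arrays 123, 111 and 107, and lymph node arrays 129, 116 and 89.4. Spleen arrays read 131, 89.6 and 136 and thymus arrays 141, 96.3 and 113. These 5 tissues overlapped one another. Kidney averaged 348.3 ± 13.0 (SD, n = 3) against a geometric mean of 133.4 in the other 8 tissues, a log2 difference of 1.38 ± 0.13 (SE), or 2.61-fold (limma adjusted p = 2.52e-09). In this comparison 6.55% of all mouse probe sets were called higher, and kidney arrays lay above all others for 4.13%. Kidney exceeded 7 tissues at the threshold, by 2.16-fold over testis to 3.16-fold over lymph node. Over liver the difference was 0.85 ± 0.17 (limma adjusted p = 2.92e-04), under the size limit. Below kidney in the order of levels came liver, testis, brain, bone marrow, spleen, thymus, lung and lymph node, and no pair of neighbours from liver downwards passed the test (limma adjusted p = 0.253 to 0.949). Gpc4 passed the human probe set median of 205.2 on 4 arrays, those of kidney and 1 of liver, so the fold is a ratio of signals and not an exact ratio of transcripts. With the dimmest tertile of probe sets left out, Gpc4 is not tested. Over the members, 2 (Gpc4 and Sdc1) had a tissue whose arrays lay above all others, against 37.7% of mouse probe sets.

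A human GPC4 probe set was present on the same arrays and was not among the members. It read 343, 304 and 312 in kidney and 114.5 to 194.8 on the 24 other arrays, so that kidney did not overlap any other tissue there either. Kidney arrays lay above all others for 0.358% of human probe sets. Over the 9 tissue means the human and mouse probe sets correlated with a Pearson r of 0.97 (Spearman rho 0.82), as measured in the same RNA samples on the same arrays. Of the 7 members with a human counterpart, GPC6 followed its mouse probe set with r = 0.62, and the other 5 had r of -0.20 to 0.37.

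**Figure D2:**
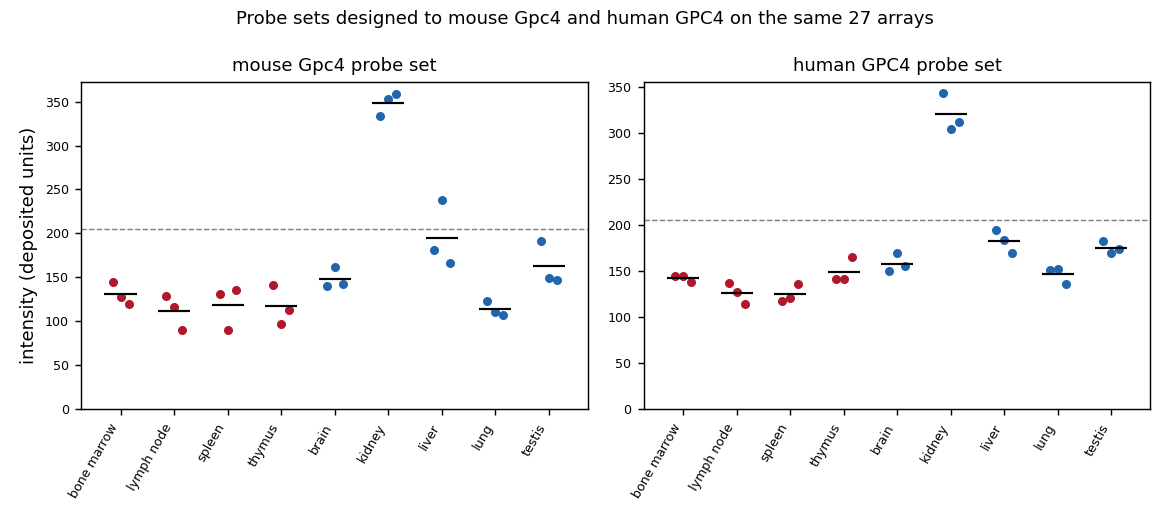
Intensity of the mouse Gpc4 probe set (left) and of the human GPC4 probe set (right) on each of the 27 arrays. Points are arrays, bars are means of 3 arrays, the dashed line is the median of all human probe sets (205.2), red marks lymphoid and blood-forming tissues and blue the others. Kidney reads 334 to 359 with the mouse and 304 to 343 with the human probe set, above all other arrays in both.

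Several listed cell type markers also differed in kidney beside Gpc4. Of 5 endothelial markers, Emcn was called higher (4.97-fold), and the summed level of the list was 1920 to 2432 in kidney against 800.1 to 7804 on the other arrays. Bmp7, a renal epithelial growth factor, was 2.42-fold higher. Of 4 macrophage and monocyte markers 3 fell, and their sum was 350.3 to 492.1 in kidney against 173.1 to 5450 elsewhere. Ugt8a, listed with the neuron and glia markers, was 15.9-fold higher, alone of 6, and the neutrophil marker Ltf was 2.87-fold lower, alone of 5. Of 3 T cell markers 2 fell (sum 592.0 to 636.8 against 516.2 to 5365), and of 4 B cell markers 2 fell (sum 2360 to 5097 against 2362 to 8981). The part of these cell types in the level of Gpc4 was not tested.

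Gpc3, a glypican that restrains growth and is lost in an overgrowth syndrome in humans, lies next to Gpc4 in the RefSeq annotation, with no protein-coding gene between them. Its tissue order was different. Spleen arrays read 1045, 651 and 774, lymph node arrays 917, 842 and 666, and lung arrays 700, 828 and 796. At the low end liver arrays read 457, 521 and 560. The ranges of neighbouring tissues overlapped, and Gpc3 spanned 0.66 with an F test adjusted p of 0.0127 in limma, which was 0.207 after quantile normalization and 0.0959 with median centring. Liver was lower than the other 8 tissues by a log2 difference of -0.44 ± 0.13 (limma adjusted p = 0.00698), under the size limit. In kidney Gpc3 differed from the other tissues by -0.05 ± 0.13 (limma adjusted p = 0.807), where Gpc4 differed by 1.38. Over the 9 tissue means the pair correlated negatively (r = -0.53), as a description. The 250 bases upstream of the RefSeq start of each gene (GRCm38.p6; Gpc4 at chrX:52164924-52165173, minus strand; Gpc3 at chrX:52613975-52614224, minus strand) are shown because these neighbours had different tissue profiles. Both read 5′ to 3′ in the direction of the gene, and capitals mark GC boxes (GGGCGG, or CCGCCC on the other strand) and CCAAT boxes (CCAAT, or ATTGG).
Gpc4: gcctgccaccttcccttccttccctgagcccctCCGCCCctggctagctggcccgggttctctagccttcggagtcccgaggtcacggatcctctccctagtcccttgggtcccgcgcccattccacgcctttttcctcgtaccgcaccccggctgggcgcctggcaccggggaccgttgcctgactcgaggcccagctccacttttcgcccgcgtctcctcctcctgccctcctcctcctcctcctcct
Gpc3: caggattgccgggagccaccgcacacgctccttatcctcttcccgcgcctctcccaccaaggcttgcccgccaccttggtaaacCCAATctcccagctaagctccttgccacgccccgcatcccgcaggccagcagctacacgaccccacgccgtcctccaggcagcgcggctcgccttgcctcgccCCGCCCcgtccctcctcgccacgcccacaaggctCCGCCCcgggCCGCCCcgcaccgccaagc
Gpc4 held 1 GC box and no CCAAT box, and Gpc3 held 3 GC boxes and 1 CCAAT box. A TATA box (TATAAA or TTTATA) was in neither window, and of the 7 members with a window Gpc5 held 1. Over 32841 RefSeq promoter windows of the same length, 32.7% held a GC box, 33.9% a CCAAT box and 12.4% a TATA box, and the searched motifs do not overlap one another in these 2 windows. The windows held 18 (Gpc4) and 25 (Gpc3) CpG dinucleotides, against a median of 6. A match describes the letters alone, and binding was not measured. Of the 10 members, 7 had a promoter in the RefSeq table, and Gpc1, Gpc6 and Sdc2 did not.

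Gpc1, a glypican of neurons and many other cells that modulates fibroblast growth factor signalling, was highest in bone marrow and brain. Bone marrow arrays read 747, 650 and 912, brain arrays 581, 665 and 753, and thymus arrays 498, 568 and 484. Bone marrow and brain overlapped, and each of their arrays exceeded every array from the remaining 7 tissues. Lung arrays read 339, 361 and 452, lymph node arrays 366, 347 and 400, and kidney arrays 350, 370 and 335. Spleen arrays read 313, 370 and 335, liver arrays 352, 322 and 318, and testis arrays 310, 311 and 306. The 3 testis arrays lay below all 24 others, with a difference of -0.51 ± 0.09 from the other tissues (limma adjusted p = 4.69e-05). A tissue lay below all others for 13.8% of mouse probe sets and for 2 members, the second being Sdc2 in bone marrow. Bone marrow averaged 769.5 ± 132.8 (SD, n = 3) against a geometric mean of 394.4 in the other tissues, a log2 difference of 0.95 ± 0.09 (1.93-fold, limma adjusted p = 7.30e-09), in a comparison that called 6.13% of mouse probe sets higher. That lies just under the size limit, and it was 1.07 without bone marrow replicate 2 and 1.01 with arrays centred on their medians, past the limit in both. The difference for brain was 0.72 ± 0.09 (limma adjusted p = 3.94e-07) and that for thymus 0.32 ± 0.09 (adjusted p = 0.00891). In single pairs, bone marrow exceeded lung, lymph node, kidney, spleen, liver and testis at the threshold, by up to 2.47-fold over testis, the lung pair lying at the limit itself, and brain exceeded liver (2.01-fold) and testis (2.14-fold). Bone marrow over brain was 0.20 with a 95% interval of -0.05 to 0.46 (limma adjusted p = 0.196). Brain differed from thymus (0.36, adjusted p = 0.0199) and thymus from lung (0.44, adjusted p = 0.00636), both under the size limit, and from lung to testis no pair of neighbours had an adjusted p under 0.05. Of the 5 neutrophil markers given above, 3 were called higher in bone marrow and none lower. In brain none of them was called higher and 1 lower, and their sum stayed within the range of the other tissues. Of the 4 fibroblast and stroma markers, 3 were called lower in bone marrow and 2 in brain, with none called higher. Their sum was 784.6 to 827.9 in bone marrow against 1280 to 15111 elsewhere, with brain at 1280 to 1750. The sum of 4 macrophage and monocyte markers was 3225 to 5450 in bone marrow against 173.1 to 2749 elsewhere, with 2 called higher and 1 lower. In brain, 3 of these 4 and 2 of 3 T cell markers were called lower. The part of these cell types in the level of Gpc1 was not tested.

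The remaining glypicans spanned less than 1 on the log2 scale. Gpc5 was highest in brain (192, 183 and 207) and liver (186, 185 and 178), followed by testis (148, 155 and 141). The other 6 tissues read 94.9 to 140.7, and no brain or liver array overlapped with them or with testis. Brain was higher than the other 8 tissues by 0.63 ± 0.08 (limma adjusted p = 3.08e-07) and liver by 0.53 ± 0.08 (adjusted p = 3.82e-06). Brain over liver was 0.08 (95% interval -0.13 to 0.30, adjusted p = 0.570), and liver differed from testis by 0.31 (adjusted p = 0.0223). On 26 of 27 arrays Gpc5 lay below the human probe set median, so that its levels sit within the range of that rough non-specific signal. Gpc6, the neighbour of Gpc5 in the annotation, read 227, 170 and 242 in brain and 133, 151 and 134 in bone marrow, and passed the human median on 3 arrays, 2 of brain and 1 of liver (267). Brain was higher by 0.32 ± 0.11 (limma adjusted p = 0.0213) and bone marrow lower, at -0.35 ± 0.11 (adjusted p = 0.0137), with the F test losing an adjusted p under 0.05 without any 1 of bone marrow replicates 1 and 3 and brain replicates 1 and 3. Gpc2, a glypican of the developing nervous system, read 265 to 500 in all, and its 1 tissue difference with an adjusted p under 0.05 was in lung, lower at -0.38 ± 0.10 (limma adjusted p = 0.00420). In brain Gpc2 read 407, 390 and 420, a difference of 0.13 ± 0.10 (adjusted p = 0.306).

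**Figure D3:**
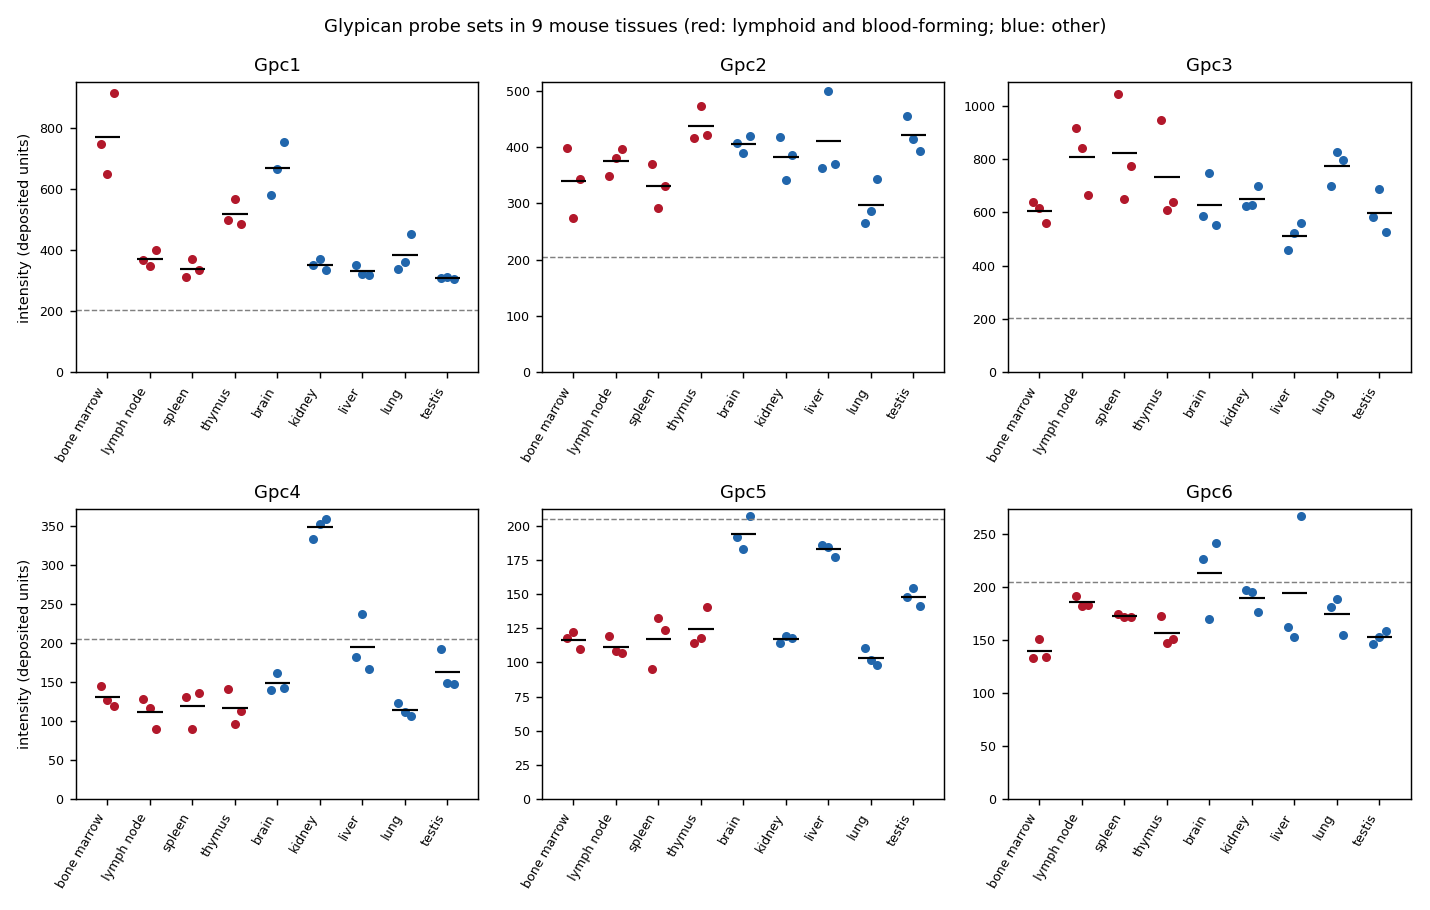
Intensity of the 6 glypican probe sets on each array, by tissue, each panel with its own axis from 0. Points are arrays, bars are means of 3 arrays, the dashed line is the human probe set median (205.2), red marks lymphoid and blood-forming tissues and blue the others. Gpc4 stands apart in kidney, Gpc1 is high in bone marrow and brain, and Gpc5 and Gpc6 lie mostly below the line.

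Sdc1, the syndecan of epithelia and plasma cells (CD138), was highest in liver. Liver arrays read 563, 432 and 468, and lung arrays 371, 410 and 289. Bone marrow arrays read 265, 275 and 257, brain arrays 264, 270 and 247, and testis arrays 270, 263 and 243. Each liver array lay above all others, and each lung array above all of the other 7 tissues. Kidney arrays read 241, 236 and 234, and thymus arrays 247, 229 and 226. Spleen arrays read 201, 223 and 257, and lymph node arrays 211, 212 and 205. Those 4 tissues overlapped in part. Liver averaged 487.6 ± 67.4 (SD, n = 3) against a geometric mean of 252.5 in the other tissues, a log2 difference of 0.94 ± 0.08 (1.92-fold, limma adjusted p = 1.69e-09). Liver arrays lay above all others for 5.41% of mouse probe sets, and 4.42% were called higher in liver. The difference passed the size limit without liver replicate 2 (1.02), with median centring (1.04) and, narrowly, with quantile normalization. Lung was higher by 0.43 ± 0.08 (limma adjusted p = 2.02e-04). In pairs, liver exceeded kidney (2.05-fold), thymus (2.07-fold), spleen (2.15-fold) and lymph node (2.31-fold) at the threshold. Liver differed from lung by 0.46 (adjusted p = 0.00167) and lung from bone marrow by 0.41 (adjusted p = 0.00475), and below bone marrow no pair of neighbours had an adjusted p under 0.05. Of 6 listed plasma cell markers the array measured Sdc1 and Prdm1, and Prdm1 differed by -0.13 ± 0.10 in liver (limma adjusted p = 0.329). The hepatocyte markers given above were high in liver beside Sdc1, and their part in its level was not tested. The 250 bases upstream of the RefSeq start of Sdc1 (GRCm38.p6, chr12:8771146-8771395, plus strand) are shown as those of the member with the largest liver difference, with motifs in capitals as above.
Sdc1: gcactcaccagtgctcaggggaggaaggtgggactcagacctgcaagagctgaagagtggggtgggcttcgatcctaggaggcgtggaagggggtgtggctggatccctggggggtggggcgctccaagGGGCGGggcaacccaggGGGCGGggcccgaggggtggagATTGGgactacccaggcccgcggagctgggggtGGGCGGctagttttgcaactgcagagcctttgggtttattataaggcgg
The window held 3 GC boxes, 1 CCAAT box and 10 CpG dinucleotides. It held no exact TATAAA or TTTATA, and the TATAAG near its end was not counted by the search.

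Sdc2, a syndecan of mesenchymal and liver cells, and Sdc4, a widely expressed syndecan of focal adhesions, had similar tissue orders. Sdc2 read 884, 720 and 853 in liver, 738, 1050 and 656 in lung, and 730, 762 and 664 in kidney. These 3 tissues overlapped one another and lay above all arrays of the other 6, which read 392 to 596. Bone marrow, at 464, 392 and 494, lay below all 24 other arrays. Sdc2 was higher in liver by 0.52 ± 0.09 (limma adjusted p = 4.84e-05), in lung by 0.48 ± 0.09 (adjusted p = 1.41e-04) and in kidney by 0.31 ± 0.09 (adjusted p = 0.00788), and lower in bone marrow, at -0.46 ± 0.09 (adjusted p = 2.58e-04). None reached the size limit. The sum of the stroma markers, lowest in bone marrow as given above, was 13179 to 15111 in lung, where 2 of 4 were called higher. It was 9622 to 11989 in lymph node, where all 4 were called higher and Sdc2 read 520 to 565. The endothelial sum was also highest in lung (6824 to 7804), as was that of lung epithelium. The part of these cell types in the level of Sdc2 was not tested. Liver over lung was 0.03 (95% interval -0.22 to 0.29, adjusted p = 0.862), and kidney differed from brain by 0.33 (adjusted p = 0.0360). Sdc4 read 485 to 714 in lung, 479 to 760 in liver and 436 to 679 in kidney, and 320 to 581 in the other 6 tissues. Arrays of one tissue differed more for Sdc4 than for any other member (residual SD 0.27 on the log2 scale, against 0.10 to 0.22). No tissue difference of Sdc4 had an adjusted p under 0.05. Over the 9 tissue means Sdc2 and Sdc4 correlated with r = 0.90 (rho 0.82), the highest of the 45 member pairs, whose median was 0.13. The means share arrays and scaling, and the pair is given as a description.

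Sdc3, the syndecan of neurons and muscle, was highest in liver (253, 299 and 286) and lowest in lung (195, 181 and 187). In brain Sdc3 read 228, 249 and 224, a difference of 0.06 ± 0.07 from the other tissues (limma adjusted p = 0.554). Liver was higher by 0.34 ± 0.07 (limma adjusted p = 3.02e-04) and lung lower, at -0.30 ± 0.07 (adjusted p = 0.00118), both under the size limit. No pair of neighbours in its tissue order had an adjusted p under 0.05. Lung was thus lowest for Sdc3 and above the other tissues' mean for Sdc1 and Sdc2.

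**Figure D4:**
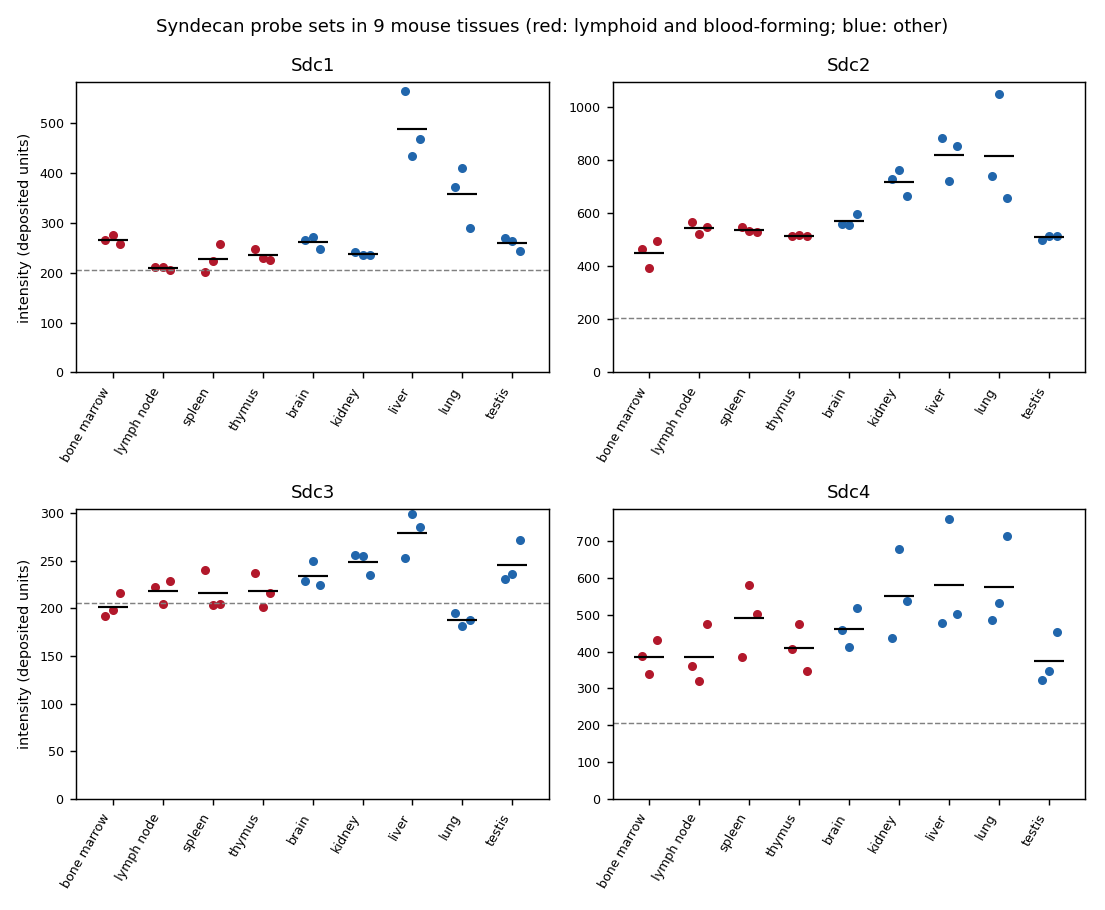
Intensity of the 4 syndecan probe sets on each array, by tissue, each panel with its own axis from 0. Points are arrays, bars are means of 3 arrays, the dashed line is the human probe set median (205.2), red marks lymphoid and blood-forming tissues and blue the others. Sdc1 and Sdc2 are high in liver and lung, and the arrays of a tissue scatter widely for Sdc4.

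The 4 lymphoid and blood-forming tissues (bone marrow, lymph node, spleen and thymus) were compared with the other 5. No member was called, where 3.13% of mouse probe sets were called lower and 11.5% higher by limma. With no size limit, 7 members were lower and 2 higher at an adjusted p under 0.05, against 34.6% and 33.0% of all mouse probe sets. At an unadjusted p under 0.05 the same 9 of 10 counted. The median difference of the members was -0.21, against -0.04 over all mouse probe sets. The largest was that of Gpc4, with 89.4 to 144.1 (median 123.5) on 12 lymphoid arrays and 106.8 to 358.6 (median 161.5) on 15 other arrays, a difference of -0.60 ± 0.08 (limma adjusted p = 6.10e-07). This difference includes the high kidney arrays (334 to 359), and the lung arrays of Gpc4 (107 to 123) lay within the lymphoid range. Sdc1 read 200.6 to 275.3 (median 227.8) on lymphoid arrays and 234.3 to 562.7 (median 269.8) on the others, a difference of -0.40 ± 0.05 (adjusted p = 6.29e-07). This difference includes the high liver arrays (432 to 563). The Sdc1 arrays of kidney (234 to 241), brain (247 to 270) and testis (243 to 270) lay within the lymphoid range. Sdc2 read 392.3 to 565.1 (median 518.1) on lymphoid arrays and 499.7 to 1050 (median 664.0) on the others, a difference of -0.40 ± 0.06 (adjusted p = 2.35e-06). Among the others, liver, lung and kidney arrays of Sdc2 read 656 to 1050. Its testis arrays (500 to 516) lay within the lymphoid range, and its brain arrays (556 to 596) did so in part. The sets of arrays overlapped for every member, and they did not overlap for 2.56% of mouse probe sets. Gpc1 was higher in the lymphoid tissues, at 0.27 ± 0.06 (adjusted p = 2.58e-04), as was Gpc3, at 0.22 ± 0.08 (adjusted p = 0.0218). The moderated F test of Gpc3 over all tissues had an adjusted p of 0.207 with quantile normalization and 0.0959 with median centring. Against the mean of the other tissues, Gpc3 differed by 0.31 in spleen, 0.29 in lymph node, 0.11 in thymus and -0.16 in bone marrow. In the same comparison all 3 measured T cell markers, 3 of 4 B cell markers and 3 of 4 macrophage and monocyte markers were called higher in the lymphoid tissues, and their part in the members' differences was not tested. Within the lymphoid tissues Gpc1 was not uniform, with the bone marrow and thymus arrays at 484 to 912 and those of lymph node and spleen at 313 to 400. Gpc2 differed by -0.05 ± 0.07 (adjusted p = 0.535).

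Other genes of the heparan sulfate pathway were counted in kidney, the tissue in which a member was called, where 6.55% of all mouse probe sets were called higher and 6.70% lower. Of 10 measured genes of the linkage region and chain polymerisation, Ugdh, which makes the sugar donor UDP-glucuronic acid, rose (2.14-fold) and none fell. Of 12 sulfation and editing genes, the sulfate donor synthase genes Papss2 (3.11-fold) and Papss1 (2.07-fold) rose and none fell. None of the listed heparan sulfate sulfotransferases that were measured was called there. Of 24 measured ligands and receptors that bind heparan sulfate, Vegfa (2.72-fold), Bmp7 (2.42-fold) and Fgf1 (2.41-fold) rose and none fell. Of 15 other proteoglycan core proteins, Cd44 (3.65-fold lower), the mast and blood cell proteoglycan Srgn (2.60-fold lower) and Cd74 (2.10-fold lower) fell and none rose. None of 5 measured degradation genes was called. Median differences of these lists in kidney were -0.01, -0.10, 0.08, -0.18 and -0.03, against -0.06 over all genes.

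The genes whose tissue profiles were most like the 3 called members were found among 286 other called genes, by Pearson r over 9 tissue means. For Gpc4 they were Pdgfc, a platelet-derived growth factor (r = 0.84), Chst7, a carbohydrate sulfotransferase (r = 0.83), and Gnpda1, a glucosamine-6-phosphate deaminase (r = 0.83). All of them were highest in kidney, with means of 352.9 ± 26.4, 375.8 ± 10.7 and 1399 ± 138 (SD, n = 3). Their rank correlations with Gpc4 were lower, at 0.40, 0.42 and 0.33. For Gpc1 they were Zmat2, a zinc finger gene (r = 0.85), the galactosyltransferase B3galt1 (r = 0.84) and the transcription factor gene Junb (r = 0.76), with rank correlations of 0.72, 0.70 and 0.63. Zmat2 and B3galt1 were highest in brain, and Junb in bone marrow. For Sdc1 they were the lectin gene Siglecf (r = 0.91), Igfbp2, which binds insulin-like growth factors (r = 0.91), and Sod1, a superoxide dismutase (r = 0.87), all highest in liver, with rank correlations of 0.83, 0.53 and 0.62. These are descriptions over 9 points that share arrays.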

How the data were processed

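Per the labels, biotin-labelled total RNA was measured on Affymetrix arrays designed for glycogenes, in 1 colour. The deposited values are linear intensities of 1813 probe sets. How the authors summarised, background-corrected and scaled them is not given in the sources used here. Signals of different probe sets were compared with the human probe sets, as a rough background, and in the filter on dim probe sets. They were also compared in taking the highest-mean probe set of a gene. The marker sums add signals of different probe sets, so that bright probe sets weigh most in them. Gene names came from the platform annotation, updated by gene identifier through RefSeq (GRCm38.p6), giving 702 mouse probe sets of 573 genes. The array's build is not named, and coordinates, of promoters and neighbouring genes alone, are those of RefSeq. Controls and human sequences stayed outside all tests.

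Intensities under 16 were raised to 16 (51 of 18954 values, none of a glypican or syndecan) and log2 taken. limma 3.58.1 in R 4.3.3 was fitted per probe set with 1 coefficient per tissue over all arrays. A moderated F test covered all 9 tissues (called with a span of tissue means of at least 1). Contrasts set each tissue against the mean of the other 8, lymphoid against other tissues, and the 2 tissues of each of 36 pairs. Benjamini-Hochberg adjustment ran within each comparison. The script was tested on simulated data. The number of arrays limits the precision. All members are named, with up to 4 called genes per pathway list in kidney, taking the highest-mean probe set of a gene, and the 3 most alike genes of each called member. The members and lists were chosen with earlier results of these data known. No label tells whether title numbers pair arrays, so the main fit held no pairing. Over 108 pairs of same-numbered arrays of different tissues, deviations from tissue means correlated with a median r of 0.02 (-0.37 to 0.58). Of these pairs 23 were over 0.1, and the median was 0.01 for different numbers. Such correlations between different tissues cannot tell whether arrays with the same number came from the same mouse. Alternatives were 2 scalings (quantile normalization and median centring), a floor of 64, an offset of 16, leaving out the dimmest tertile, 1 probe set or the probe set mean per gene, trend and robust eBayes, array weights, a replicate block, and leaving out each array.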

Additional observations from a re-analysis of the deposited data

How the results depend on the processing

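Gpc4 in kidney kept its call under the 36 alternatives that could test it, with log2 differences of 1.28 to 1.41, and was not tested where the dimmest tertile of probe sets was left out. The F test called 3 members with each of 27 arrays left out, 4 with quantile normalization (Sdc2 added) and with median centring (Gpc5 added), and 2 without the dimmest tertile. Calls of 1 tissue higher than the other 8 numbered 1 in the main setting, 2 with quantile normalization (Sdc1 in liver added), 3 with median centring (Sdc1 in liver and Gpc1 in bone marrow added) and 0 without the dimmest tertile, since Gpc4 is dim. Leaving out 1 array gave 1 to 2 such calls, the second being Gpc1 without bone marrow replicate 2 or Sdc1 without liver replicate 2. Pair calls were 19 in the main setting, 12 without the dimmest tertile, 24 with quantile normalization and 16 to 21 with 1 array left out. Lower calls and lymphoid calls stayed at 0 under all 37 alternatives. With the title number as a replicate block the counts were 3 by the F test, 1 higher, 0 lower, 0 lymphoid and 19 pairs, so that the block changed no call. Median centring moved the median difference of all mouse probe sets by up to 0.11 in a tissue. The low signal of Gpc4, Gpc5 and Gpc6, and of Sdc3 on 9 arrays, against the human probe set median limits what their differences show. Each alternative was run alone.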
